A study of Mus musculus with 15 samples.

Results

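The 39 genes described here are the folding and stress genes of the endoplasmic reticulum (ER) in the mouse intestine. They were given as a list by gene symbol, and all 39 were rows of the count table, which holds 17185 genes in 18919 single cells. In role they are 6 lumenal chaperones, 2 lectin chaperones, 4 disulphide isomerases, 3 Hsp40 co-chaperones, 8 stress sensors and transcription factors, 3 targets of the integrated stress response, 7 genes of ER-associated degradation and 6 genes of the translocon. The cells came from 5 mice, 6 months old, all carrying Lgr5-eGFP-IRES-CreERT2, an allele that places a green fluorescent protein and an inducible recombinase under the promoter of the stem cell gene Lgr5 and is known to be silent in part of the crypts. The high fat diet (HFD) drew 60% of its kcal from fat and was fed to 3 mice, and the control diet drew 10% and was matched for sucrose, fed to 2 mice. Each mouse gave a proximal small intestine, a distal small intestine and a colon sample (proximal, distal and colon samples from here on), so there were 15 Seq-Well libraries, a method that captures single cells in small wells and counts unique molecular identifiers (UMIs). The authors' cell table also calls each cell stem or not stem. That call was met in all 18919 cells by 1 or more UMIs of Lgr5 or eGFP, and it split the cells into 4618 stem-called cells and 14301 other cells.

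Proteins bound for the membrane or for secretion enter the ER through the translocon, fold there with chaperones and disulphide isomerases, and are sent out for degradation if they fail to fold. When unfolded proteins build up, the sensors Ern1 (IRE1α) and Ern2 (IRE1β), Eif2ak3 (PERK) and Atf6 start the unfolded protein response, which raises chaperone and degradation genes through Xbp1, Atf6 and Atf4. In the intestine this machinery is known for its load in the mucus-secreting goblet cells, the antimicrobial Paneth cells and the antibody-secreting plasma cells.

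Promoters from 250 bases before to 50 bases after the gene start were found in the RefSeq table (GRCm38.p6, the build also called mm10) for 31 of the 39 genes, as 34 windows of 300 bases. Both strands were searched. The ER stress response element, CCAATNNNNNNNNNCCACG, the site that Atf6 is known to bind together with the factor NF-Y, was in 9 of the 31 genes (29.0%), against 0.137% of 27025 genes with windows of the same length. The 9 genes were Calr, Canx, Creld2, Derl3, Dnajc3, Hsp90b1, Hspa5, Pdia6 and Syvn1, and Hsp90b1 held 2 copies, 1 on each strand. The related element ERSE-II (ATTGG, 1 base of any kind, then CCACG) was in Dnajb11 and Herpud1 (6.45%, against 0.0444% of all these genes), and it overlapped no copy of the first element. The sequence TGATGCAA, a site that heterodimers of C/EBP and ATF factors such as Atf4 and Ddit3 bind, was in Chac1 and Herpud1 (6.45%, against 1.03% of all these genes). The sequence TGACGTGG, a site bound by Xbp1 and Atf6, was in 0 of the 31 genes and in 0.714% of all these genes. A match describes the letters of a promoter and not binding. The genes were listed for ER folding and stress, and the ER stress response element is named for that response. Its share thus describes the list and is not a test. The stretches below show the matches of the major chaperones and isomerases, on the gene's own strand 5′ to 3′, with the fixed letters of the element in capitals (CGTGG with ATTGG where it lies on the opposite strand).
Hspa5 (chr2:34771995-34772073, plus strand): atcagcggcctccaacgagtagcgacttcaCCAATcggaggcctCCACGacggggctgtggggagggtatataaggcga
Hsp90b1 (chr10:86705503-86705686, minus strand): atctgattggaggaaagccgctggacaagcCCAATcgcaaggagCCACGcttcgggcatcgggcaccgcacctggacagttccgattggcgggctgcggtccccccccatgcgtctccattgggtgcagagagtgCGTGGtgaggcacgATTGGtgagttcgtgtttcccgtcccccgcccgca
Calr (chr8:84847045-84847123, minus strand): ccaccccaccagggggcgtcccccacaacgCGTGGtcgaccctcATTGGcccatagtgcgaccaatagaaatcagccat
Pdia6 (chr12:17266461-17266539, plus strand): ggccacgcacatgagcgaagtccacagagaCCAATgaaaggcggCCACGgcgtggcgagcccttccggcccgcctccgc
Dnajc3 (chr14:118937797-118937875, plus strand): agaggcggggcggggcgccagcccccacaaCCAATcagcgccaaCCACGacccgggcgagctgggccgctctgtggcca
The next stretches show, in capitals, the related element of the degradation gene Herpud1 and the C/EBP-ATF site of Chac1, which reads TTGCATCA on the gene's strand.
Herpud1 (chr8:94386347-94386417, plus strand): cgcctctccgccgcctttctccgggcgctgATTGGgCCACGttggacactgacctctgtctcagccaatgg
Chac1 (chr2:119351019-119351086, plus strand): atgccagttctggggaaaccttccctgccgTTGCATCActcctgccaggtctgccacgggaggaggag

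Raw counts were summed per library over stem-called and over other cells, which gave 30 sums. The stem-called sums held 27 to 617 cells and 321496 to 13694552 UMIs (median UMIs per cell 5354 to 21098), and the other sums held 297 to 1438 cells and 1699260 to 28652200 UMIs (medians 2588 to 22081.5). Since the call needs a UMI of Lgr5 or eGFP, it can depend on depth. In the colon, stem-called and other medians were 18430 and 4263.5 in HFD mouse 1, and 10401 and 2588 in HFD mouse 2. In some libraries the other cells were deeper, as in distal samples of control mouse 2 (21098 and 22081.5). Levels are counts per 1000000 UMIs of a sum (CPM). Of 18898 barcode sequences, 16 occurred in more than 1 library. Several cell types carried the stem call. With cells clustered without the 39 genes and named from marker genes, 1734 of 3211 stem-like cells carried it (median 11706 UMIs), but so did 79 of 171 Paneth-like cells (15712 UMIs), 156 of 2174 goblet-like cells (15121 UMIs) and, among cells that should lack Lgr5, 58 of 537 T cell-like cells (5946 UMIs). Of the 7 goblet markers measured, none was at 0 in any group, and 3 or 4 of the 8 Paneth markers were at 0 in the colon groups. Most genes seen in under 5 cells of a library appeared to have been set to 0 before deposit. Of the entries of a gene in a library, 47183 were at 0, while 94 were seen in 1 cell and 5035 in 5 cells. A gene at 0 in a whole library may thus have been seen in a few of its cells, and such a 0 does not show absence.

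Taken as a sum, the 39 genes made up a smaller share of the UMIs in stem-called cells than in the other cells of the same library, in all 15 libraries. In proximal samples the share in stem-called cells was 0.866, 0.948 and 0.888% in HFD mice 1 to 3, against 0.749 and 0.967% in control mice 1 and 2. In the other cells of the same samples it was 1.01, 1.23 and 1.26% in HFD mice 1 to 3, against 1.02 and 1.33% in control mice 1 and 2. All 5 mice were lower on the stem-called side. In distal samples the stem-called share was 0.819, 0.869 and 1.23% in HFD mice 1 to 3, against 0.758 and 1.03% in control mice 1 and 2. The share in the other distal cells was 1.22, 1.29 and 1.70% in HFD mice 1 to 3, against 0.979 and 1.60% in control mice 1 and 2. Again all 5 were lower, with HFD mouse 3 the highest in both populations. In the colon the stem-called share was 0.930, 0.888 and 0.968% in HFD mice 1 to 3, against 0.795 and 1.21% in control mice 1 and 2. The share in the other colon cells was 1.34, 1.47 and 1.30% in HFD mice 1 to 3, against 1.05 and 1.42% in control mice 1 and 2. In the colon too, each mouse was lower in its stem-called cells, and control mouse 2 came closest. Over the 5 mice, the stem-called mean was 0.884 ± 0.0858% and the other mean 1.17 ± 0.145% in proximal samples, 0.940 ± 0.189% and 1.36 ± 0.293% in distal samples, and 0.959 ± 0.156% and 1.32 ± 0.164% in the colon (SD, n = 5 each). The HFD and control values overlapped in each organ and population.

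**Figure D1:**
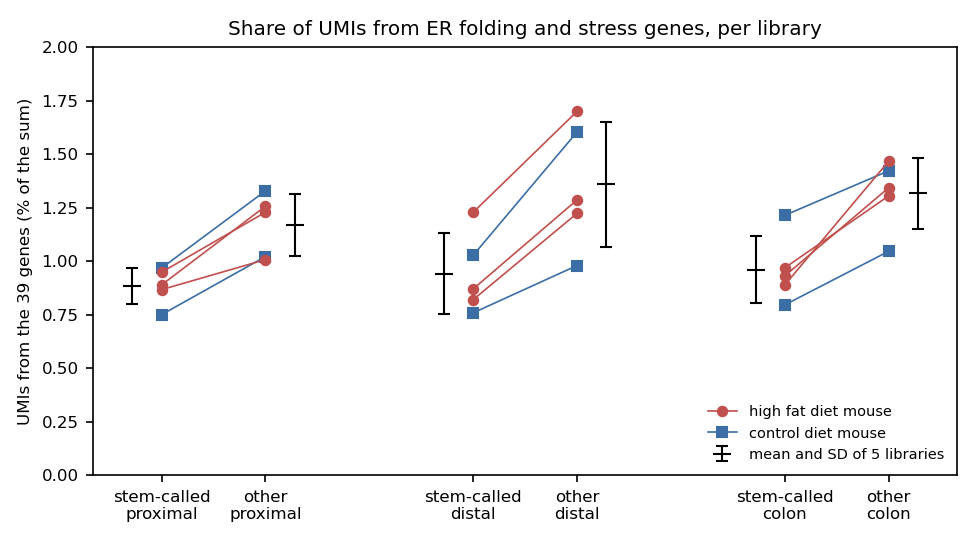
Share of all UMIs (percent, y axis) taken by the 39 genes in the stem-called and the other cells of each library, by organ. Each line joins the 2 populations of 1 library, circles are HFD mice, squares control mice, and black bars the mean ± SD of 5 mice. Every line is lower on its stem-called side.

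Gene by gene, the stem-called and the other sums of each library were compared within organs by edgeR's quasi-likelihood test with the library as a block and Benjamini-Hochberg adjustment over all genes. Of the 39 genes, 31 were lower in stem-called cells in proximal samples, 34 in distal samples and 35 in the colon, and none was higher. Over all genes tested, the calls in the same comparisons were 36.7%, 44% and 44.1% in either direction, with 20.8%, 23.7% and 23.3% lower and 15.9%, 20.3% and 20.8% higher, so the counts of lower genes among the 39 lie above this background. The median log2 difference over the 39 genes was -0.44, -0.59 and -0.52, against -0.00, -0.00 and -0.01 over all genes tested. In single libraries, 536 of the 585 ratios of stem-called to other cells were below 1, and 23 genes were lower in all 15 libraries. These ratios, of CPM with 1 added, were taken for the 39 genes alone, so no share over all genes stands beside them. They are not independent, since they come from the same 5 mice. In sums of cells, fewer cells of a type and less RNA per cell cannot be told apart.

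All 6 lumenal chaperones fell in stem-called cells in each organ. Hspa5 (BiP, chromosome 2, 34772090 to 34776529, GRCm38), the main Hsp70 of the ER lumen, whose promoter carries the element printed above, shows the pattern. In proximal stem-called cells it stood at 1339, 1522 and 1218 CPM in HFD mice, against 1328 and 1713 CPM in control mice. In the other proximal cells it stood at 1635, 1986 and 1999 CPM in HFD mice, against 1869 and 2414 CPM in control mice. Each library was lower in its stem-called cells, although the 2 ranges overlap. The log2 difference was -0.54 (SE 0.09, adjusted p = 6.63e-05), a level 0.688 times that of the other cells, by edgeR's quasi-likelihood test with Benjamini-Hochberg adjustment. In distal samples it was -0.73 (SE 0.09) and in the colon -0.63 (SE 0.09), where stem-called cells held 1228, 1104 and 1317 CPM in HFD mice, against 1410.2 and 2540.2 CPM in control mice, and other cells 2032, 2376 and 1935 CPM in HFD mice, against 1866 and 2847 CPM in control mice. Manf, a stress-induced protein of the ER lumen, had the widest difference of this role in proximal samples and the colon, with log2 differences of -0.81, -0.84 and -0.78 in proximal, distal and colon samples. In the same order the differences were -0.66, -0.76 and -0.60 for Hyou1, the nucleotide exchange factor of Hspa5, -0.46, -0.60 and -0.41 for Hsp90b1, the Hsp90 of the ER, -0.59, -0.75 and -0.50 for Sdf2l1, a partner of Hspa5, and -0.60, -0.86 and -0.65 for Creld2, a stress-induced lumenal protein.

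The 2 lectin chaperones hold glycoproteins during folding. Calr, the soluble lectin, fell in each organ (log2 -0.44, -0.59 and -0.52 in proximal, distal and colon samples). Canx, its membrane-bound relative, fell in both parts of the small intestine (-0.39 and -0.40) and did not pass the test in the colon (-0.10, 95% interval -0.21 to 0.01, adjusted p = 0.13 by edgeR's quasi-likelihood test). Whether the lectins differ between organs in this respect was not tested. All 4 disulphide isomerases fell in each organ: P4hb differed by log2 -0.72, -0.50 and -0.52, Pdia3, which acts on glycoproteins, by -0.37, -0.49 and -0.42, Pdia4 by -0.40, -0.48 and -0.42 and Pdia6 by -0.44, -0.62 and -0.46. Of the Hsp40 co-chaperones of Hspa5, Dnajb11 and Dnajc3 fell in each organ (-0.65, -0.68 and -0.64, and -0.58, -0.65 and -0.78). Dnajb9 passed in the colon (-0.60, adjusted p = 0.00613), with -0.03 and -0.32 in the small intestine, and its colon call was lost without HFD mouse 3 (-0.55) or control mouse 2 (-0.38).

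The sensors and transcription factors spanned a wide range. Ern2, the IRE1 form of mucus-secreting epithelium (chromosome 7, 122169893 to 122186239), and Creb3l1 (chromosome 2, 91982328 to 92024170), a membrane-bound transcription factor cut in the manner of Atf6, fell most of this role in the small intestine. Proximal stem-called cells held 9.45, 14.6 and 8.84 CPM in HFD mice, against 8.13 and 2.41 CPM in control mice for Ern2. The other proximal cells held 15.9, 24.0 and 20.8 CPM in HFD mice, against 19.3 and 18.4 CPM in control mice. These 2 ranges did not overlap. The log2 difference of Ern2 was -1.48 (SE 0.21), -1.41 (SE 0.17) and -1.04 (SE 0.18) in proximal, distal and colon samples, that of Creb3l1 was -1.56, -1.35 and -0.75, and that of its relative Creb3l4 was -0.56, -1.03 and -1.47. Xbp1 (-0.59, -0.77 and -0.94), Atf6 (-0.52, -0.70 and -0.72) and Ern1 (-0.81, -0.47 and -0.39) also fell in each organ. Eif2ak3 passed in distal samples and the colon (-0.46 and -0.83), with -0.35 in proximal samples (adjusted p = 0.0736 by edgeR's quasi-likelihood test). Single mice decided some of these calls: proximal Creb3l4 was lost without HFD mouse 2 (-0.50) or control mouse 2 (-0.24), distal Eif2ak3 without HFD mouse 3 (-0.46) or control mouse 2 (-0.29), colon Ern1 without HFD mouse 1 (-0.40), HFD mouse 3 (-0.29) or control mouse 2 (-0.29), and proximal Eif2ak3 was gained without HFD mouse 1 (-0.43).

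Atf4 and its targets gave few calls. Atf4, the transcription factor translated when Eif2ak3 or other kinases slow protein synthesis, stood in distal stem-called cells at 321, 258 and 319.9 CPM in HFD mice, against 475 and 244 CPM in control mice. Other distal cells stood at 399, 306 and 381 CPM in HFD mice, against 384 and 306 CPM in control mice. Control mouse 1 was the only distal library with more in its stem-called cells, and without it Atf4 passed (-0.31). With all mice, its log2 differences were -0.07, -0.20 and -0.21 (95% intervals -0.29 to 0.15, -0.43 to 0.02 and -0.45 to 0.03). Ddit3 (CHOP), a pro-apoptotic factor of prolonged ER stress, gave -0.16, -0.21 and -0.40, and its lowest adjusted p was 0.0529, in the colon. Trib3, a pseudokinase induced by Atf4 and Ddit3, and Chac1, a glutathione-degrading enzyme, were low in every sum, at 0 to 3.85 CPM for Trib3 and 0 to 6.88 CPM for Chac1. Trib3 gave -0.25, -0.25 and -0.31 and passed nowhere. Chac1 gave -0.32, -2.39 and -2.0 and passed in distal samples (adjusted p = 0.000987) and the colon (0.047), where the call was lost without any 1 of the 3 HFD mice (-1.64, -2.0 and -1.24).

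Among the degradation genes, Edem1, which picks out misfolded glycoproteins, fell in each organ (log2 -0.76, -0.70 and -1.20), and so did Syvn1 (-0.35, -0.63 and -0.86), the ubiquitin ligase Hrd1, its partner Sel1l (-0.35, -0.33 and -0.45) and the membrane proteins Derl1 (-0.33, -0.28 and -0.37) and Derl2 (-0.40, -0.48 and -0.51). Herpud1, a scaffold of the Hrd1 complex, gave -0.08 in proximal samples and fell in distal samples (-0.28) and the colon (-0.75). Derl3 passed in the colon (-2.77, SE 0.61, adjusted p = 0.00151 by edgeR's quasi-likelihood test). Its colon stem-called sums held 1.23, 0 and 0.695 CPM in HFD mice, against 0 and 1.17 CPM in control mice, and the other colon sums held 19.9, 0 and 4.65 CPM in HFD mice, against 1.82 and 1.30 CPM in control mice. HFD mouse 1 was high, with 19.9 CPM in its other cells, and HFD mouse 2 was listed at 0 in both sums. Over the 3 HFD mice, B and plasma cell markers summed to 1356 to 8727 CPM in the other colon cells. In those of control mice they summed to 85.0 to 821 CPM. Whether Derl3 follows these markers from mouse to mouse was not tested. Without immune-like clusters in the other cells, Derl3 stood at -0.83 and did not pass (adjusted p = 0.302 by edgeR). The 6 translocon genes fell in each organ: the channel subunits Sec61a1 (-0.52, -0.58 and -0.57) and Sec61b (-0.52, -0.62 and -0.52), and the translocon-associated proteins Ssr1 (-0.34, -0.45 and -0.33), Ssr2 (-0.39, -0.50 and -0.38), Ssr3 (-0.43, -0.37 and -0.51) and Ssr4 (-0.22, -0.27 and -0.39). Calls of these 2 roles that 1 mouse decided were proximal Syvn1 (-0.29 without control mouse 1, -0.33 without control mouse 2), proximal Ssr4 (-0.21 without HFD mouse 3, -0.19 without control mouse 1), distal Derl1 (-0.21 without HFD mouse 3) and distal Herpud1 (-0.23 without HFD mouse 3, -0.25 without control mouse 2).

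**Figure D2:**
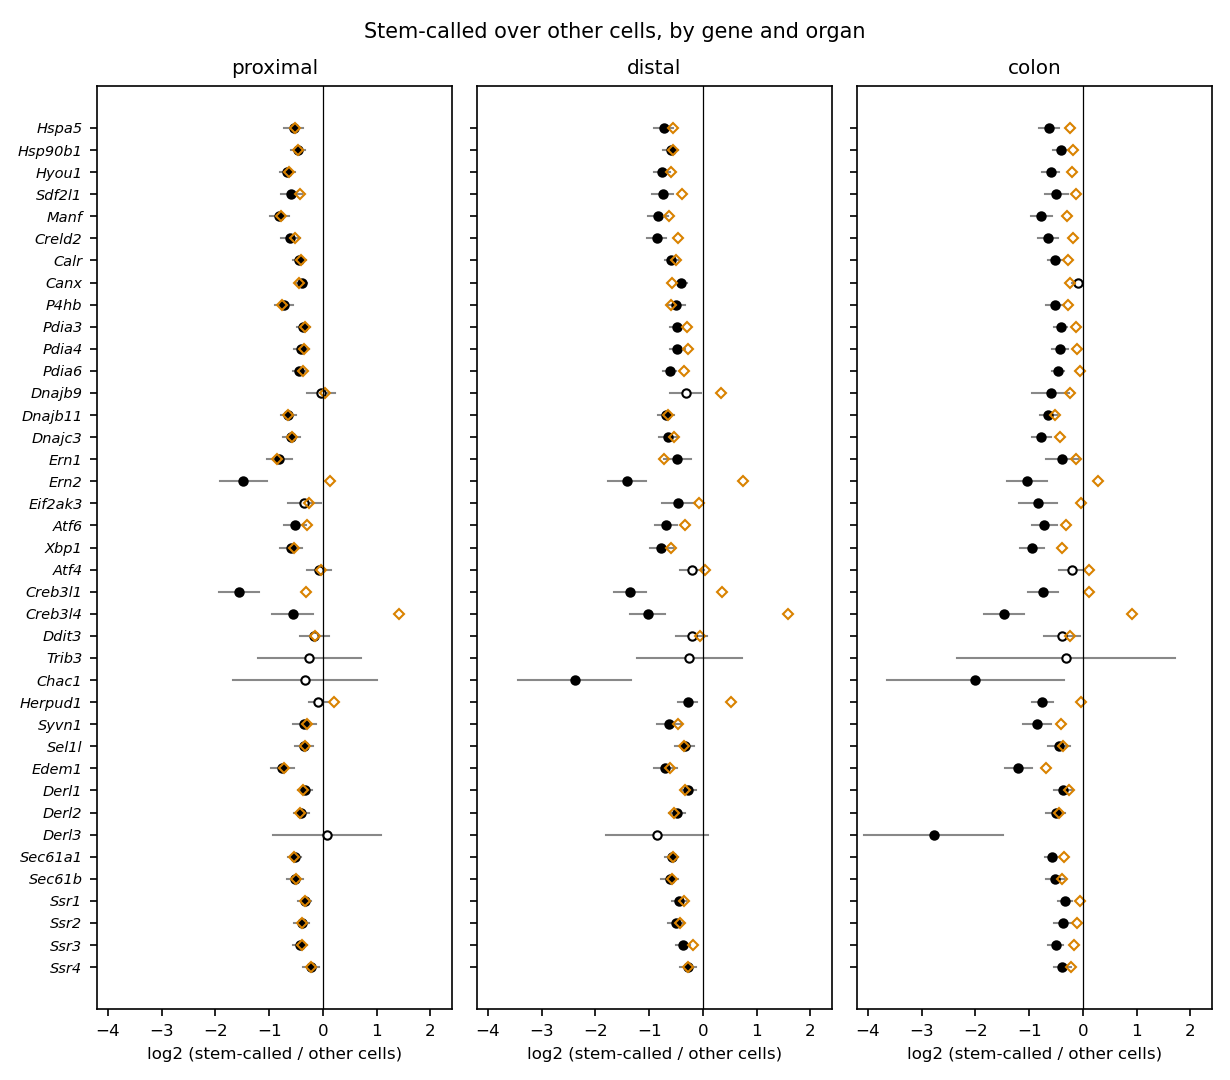
Log2 difference (x axis) of stem-called minus other cells for each of the 39 genes (y axis, by role) in the 3 organs. Filled points have an adjusted p below 0.05, grey lines are 95% intervals, and orange diamonds give the fit with immune-like and secretory-like clusters left out of both populations. All filled points lie left of 0, while the diamonds of Creb3l4 lie right of it.

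Secretory cells were unevenly spread over the 2 populations. The 7 measured goblet markers of 8 listed, none of them at 0 in any group, summed to 1654 to 5644 CPM in stem-called and 8447 to 19035 CPM in other distal cells of HFD mice, and to 1699.9 to 3329 CPM in stem-called and 6315 to 12748 CPM in other distal cells of control mice. The 8 Paneth markers ran the other way in distal samples by their group medians, at 1901 to 17161 CPM (median 9745) in stem-called and 1467 to 7126 CPM (median 3901) in other cells of HFD mice, whose ranges overlapped, and at 2435 to 3075 CPM in stem-called and 663 to 691 CPM in other cells of control mice. The gene calls were repeated without immune-like clusters (T cell-like, B or plasma cell-like and myeloid-like) and secretory-like clusters (goblet-like, Paneth-like, enteroendocrine-like and tuft-like). With these left out of the other cells alone, 28 of the 36 genes that passed the filter were lower and 4 higher in stem-called cells in proximal samples (median log2 -0.36), 16 lower and 5 higher in distal samples (-0.15) and 17 lower and 2 higher in the colon (-0.18). This fit kept 156 goblet-like and 79 Paneth-like cells in the stem-called sums. It is thus uneven by construction for genes high in such cells, whose turns to higher are no finding about stem-called cells. Over all genes in those fits, 20.9%, 22.8% and 20.6% were lower and 19.4%, 22.7% and 17.7% higher. With the clusters left out of both populations, an alternative added after seeing the data, 28 of 36 were lower and 1 higher in proximal samples (median log2 -0.38), 28 lower and 3 higher in distal samples (-0.41) and 20 lower and 1 higher in the colon (-0.23), while 21.3%, 23.5% and 21.7% of all genes were lower and 19%, 22.4% and 19% higher. The remaining values are from the fit without the clusters in both populations. Hspa5 stood at -0.52, -0.55 and -0.24, Xbp1 at -0.53, -0.59 and -0.39, and Edem1 at -0.73, -0.61 and -0.68, each still called. The genes that turned to higher were Creb3l4 in all 3 organs (1.41, 1.58 and 0.91), and Creb3l1 (0.36) and Herpud1 (0.52) in distal samples. Ern2 also changed sign (0.14, 0.74 and 0.28) without passing. The lower levels of Ern2, Creb3l1 and Creb3l4 in stem-called cells thus depended on which clusters were counted.

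Cell clusters set the genes' levels side by side with cell type. Pooled over all libraries, the 39 genes took 4.56% of UMIs in a cluster of 32 cells led by the antibody genes Igha and Igj, 2.51% in Paneth-like cells, 2.41% in goblet-like cells, 1.40% in enterocyte-like cells, 1.01% in transit-amplifying-like cells and 0.803% in stem-like cells. These are descriptions without a test, and the order of Paneth-like and goblet-like cells differed by organ: Paneth-like cells were at 2.63% in distal samples, which hold 147 of the 171, and at 1.86% in proximal samples, against 2.60% and 2.32% in goblet-like cells. Distal samples of HFD mice gave 131 of the Paneth-like cells and those of control mice 16. Only 2 libraries, both distal, held 20 or more, so pooled Paneth-like levels mostly describe distal samples of HFD mice. Stem-like, transit-amplifying-like and enterocyte-like cells were almost all from the small intestine, with 3 of 3211, 3 of 2380 and 1 of 2378 from the colon. Hspa5 stood at 6806 CPM in the Igha- and Igj-led cluster, 4323 CPM in goblet-like and 1260.2 CPM in stem-like cells. Xbp1, which plasma cells need to secrete antibody, stood at 2695, 488 and 119.8 CPM in the same order. Hsp90b1 (13128 CPM), Edem1 (1677 CPM), Derl3 (576 CPM) and Chac1 (129 CPM) were also high in the Igha- and Igj-led cluster, against 2587, 221, 3.77 and 4.48 CPM in goblet-like cells. Among the named types and this cluster, all 6 lumenal chaperones, 7 degradation genes and 3 Hsp40 co-chaperones had their highest pooled level in it. So did 2 of 3 integrated stress response targets, 1 of 2 lectin chaperones and 1 of 4 disulphide isomerases. Only 2 of 8 sensors and transcription factors and 1 of 6 translocon genes did. The share over all genes was not taken, and no library held 20 or more of its cells. In this cluster Ern2 stood at 2.94 CPM and Creb3l4 was listed at 0.

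Ern2, Creb3l1 and Creb3l4 were high in the goblet-like and Paneth-like cells. Ern2 stood at 287 CPM in goblet-like, 260.5 CPM in Paneth-like, 61.0 CPM in tuft-like, 1.36 CPM in enterocyte-like and 3.76 CPM in stem-like cells. Creb3l1 stood at 527, 297, 29.9, 7.53 and 7.23 CPM in the same cells, and Creb3l4 at 199, 209, 34.5, 1.44 and 5.77 CPM. Ern1, the form found in most tissues, was spread more evenly, at 49.3, 105, 21.9, 56.1 and 25.5 CPM. The stem-like and enterocyte-like levels here describe the small intestine, and colon stem-called cells held more Creb3l1 and Ern2 (given below). Other genes had their own peaks: P4hb stood at 3589 CPM in Paneth-like and 1714 CPM in goblet-like cells, Atf6 at 866 CPM in enteroendocrine-like and 178 CPM in goblet-like cells, and Canx at 1639 CPM in enterocyte-like and 1159 CPM in goblet-like cells. The goblet-like group joins clusters, and 1 of them, of 762 of the 2174 cells and holding the colon goblet-like cells, was led by Mptx1, Retnlb, Sval1 and Reg4, with 4 goblet markers at 2 times the level of other cells but none among its 10 leading genes.

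**Figure D3:**
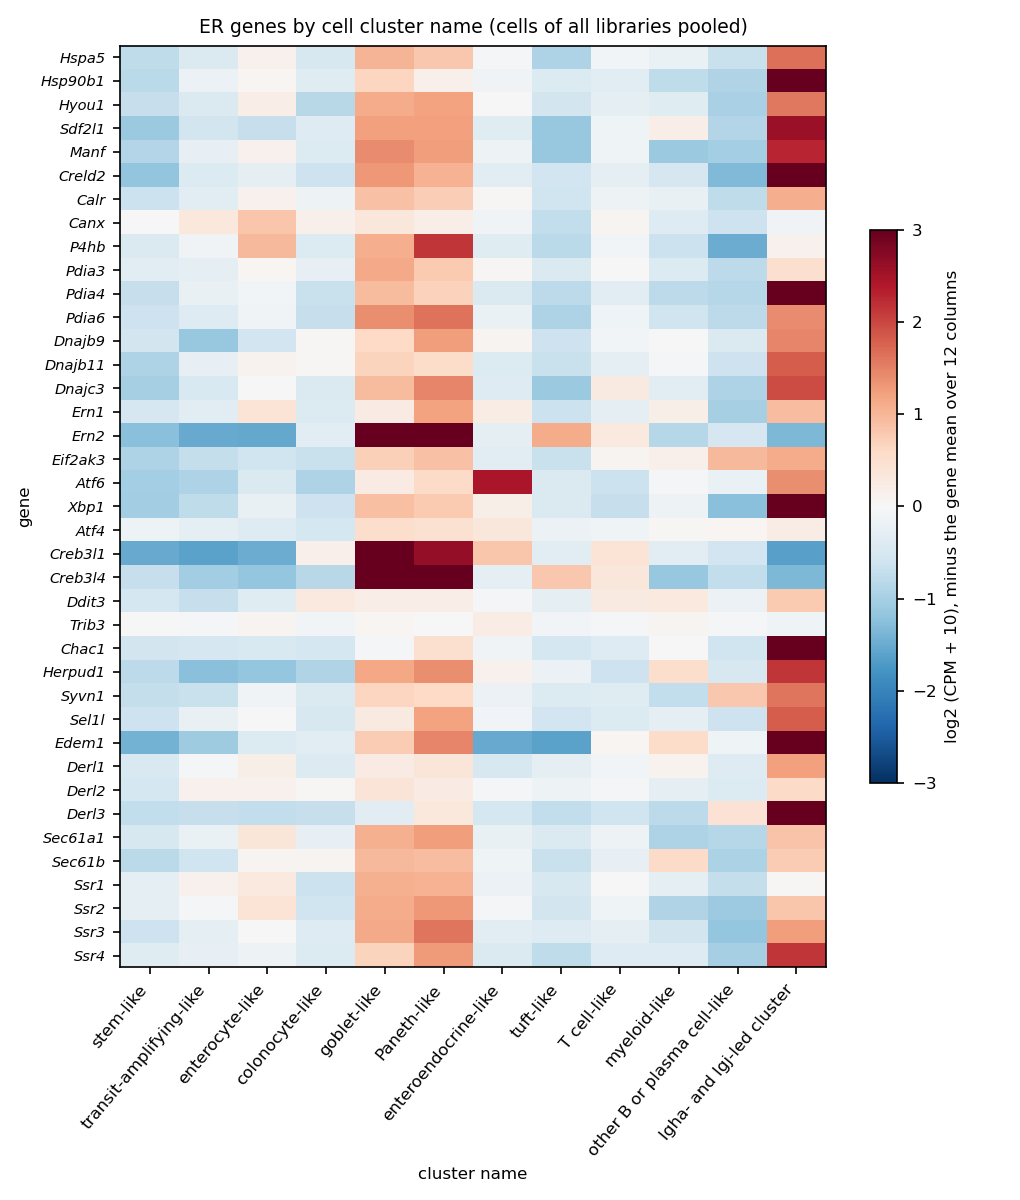
Heat map of the 39 genes (rows, by role) over named cell clusters (columns), as log2 of CPM with 10 added, minus the gene's mean over the columns. The Igha- and Igj-led cluster is the brightest for Hsp90b1, Edem1 and Xbp1, and the goblet-like and Paneth-like columns for Ern2, Creb3l1 and Creb3l4.

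Along the small intestine, the same 3 genes led the calls. Between distal and proximal stem-called cells, 4 of the 36 genes that passed the filter on low counts were called, all higher in distal samples (over all genes, 5.46% in either direction, 3.78% higher and 1.69% lower), and Trib3, Chac1 and Derl3 failed the filter. Creb3l1 stood in distal stem-called cells at 41.2, 56.6 and 68.0 CPM in HFD mice, against 26.4 and 50.1 CPM in control mice. In proximal stem-called cells it stood at 15.03, 21.5 and 9.26 CPM in HFD mice, against 8.86 and 5.11 CPM in control mice. The lowest distal library lay above the highest proximal one, and the log2 difference was 2.22 (SE 0.26, adjusted p = 0.000121 by edgeR's quasi-likelihood test with Benjamini-Hochberg adjustment). Ern2 held 21.4, 35.5 and 58.0 CPM in HFD mice, against 12.7 and 18.6 CPM in control mice in the distal stem-called cells, where control mouse 1 lay below the highest proximal library. Its difference was 1.77 (SE 0.34, adjusted p = 0.00447). Creb3l4 (chromosome 3, 90237498 to 90244582) differed by 1.52 (SE 0.25, adjusted p = 0.00179) and Edem1 (chromosome 6, 108824045 to 108859356) by 0.70 (SE 0.19, adjusted p = 0.0482). Only Creb3l1 kept its call without each mouse: Ern2 was lost without HFD mouse 3 (1.46) or control mouse 2 (1.27), Creb3l4 without control mouse 2 (1.29), and Edem1 without HFD mouse 2 (0.72), HFD mouse 3 (0.52), control mouse 1 (0.76) or control mouse 2 (0.61). With the mouse as a block, 4 genes were called (over all genes, 11.6%).

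Goblet and Paneth markers moved with these genes. Goblet markers summed to 1654 to 5644 CPM in distal and 731 to 1702 CPM in proximal stem-called cells of HFD mice, and to 1699.9 to 3329 CPM in distal and 381 to 781 CPM in proximal ones of control mice, and the 8 Paneth markers to 1901 to 17161 and 127 to 339 CPM in HFD mice and to 2435 to 3075 and 633 to 1355 CPM in control mice. Without immune-like and secretory-like clusters, Creb3l1 was the 1 gene called (1.97), and Ern2 (0.80), Creb3l4 (0.28) and Edem1 (0.28) did not pass. The chaperone Hspa5 (-0.03), Xbp1 (0.29), Atf4 (-0.18), Atf6 (0.33), Ddit3 (-0.00), Ern1 (0.20) and Eif2ak3 (0.49) passed in neither setting. In the other cells, 3 of 39 genes were called, all higher in distal samples (over all genes, 6.32%, with 4% higher and 2.32% lower): Creb3l1 by 1.98, Creb3l4 by 1.93 and Ern2 by 1.73. With the mouse as a block, 6 genes were called (over all genes, 16.9%), Atf6 among them (0.55). Without immune-like and secretory-like clusters 1 was called, Creb3l1 (1.33).

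In the colon, Creb3l1 and Ern2 were higher still. Colon stem-called cells held 173, 208 and 132 CPM in HFD mice, against 162 and 199.7 CPM in control mice for Creb3l1, above every small intestine library. Set against the mean of both parts of the small intestine, the log2 difference was 2.97 (SE 0.21, adjusted p = 7.8e-08), and that of Ern2 was 1.92 (SE 0.28, adjusted p = 0.000125) by edgeR's quasi-likelihood test. Ern2 stood at 47.8, 77.8 and 43.3 CPM in HFD mice, against 57.4 and 48.4 CPM in control mice, where the distal library of HFD mouse 3, at 58.0 CPM, reached into the colon range. These 2 were the genes called among 36 (over all genes, 18%, with 10.7% higher and 7.31% lower), and with the mouse as a block 5 were higher and 1 lower (over all genes, 28.1%). The 2 differences were wider without immune-like and secretory-like clusters (Creb3l1 4.21, Ern2 3.89), where Creb3l4 (1.24) and Sec61b (0.54) were also called. Hspa5 (0.11), Xbp1 (0.12), Atf4 (-0.20), Atf6 (0.05), Ddit3 (0.46), Ern1 (-0.02) and Eif2ak3 (0.19) did not pass.

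In the other cells of the colon, 6 of 39 genes were higher and 2 lower than in the small intestine (over all genes, 28.9%, with 16.4% higher and 12.5% lower, so the share is below the background). Creb3l1 (2.28), Ern2 (1.55) and Creb3l4 (1.39) led, and their calls held without each mouse and without immune-like and secretory-like clusters (4.15, 3.95 and 1.77). Eif2ak3 (0.72), Herpud1 (0.55) and Edem1 (0.55) were higher and Canx (-0.42) and Ern1 (-0.36) lower, but each of these 5 lost its call without 1 or more of the mice: Eif2ak3 without HFD mouse 2 (0.57) or control mouse 2 (0.52), Herpud1 without HFD mouse 1 (0.59), HFD mouse 2 (0.52), HFD mouse 3 (0.56) or control mouse 2 (0.29), Edem1 without HFD mouse 1 (0.50), HFD mouse 2 (0.46), control mouse 1 (0.69) or control mouse 2 (0.36), Ern1 without HFD mouse 2 (-0.33), control mouse 1 (-0.32) or control mouse 2 (-0.39), and Canx without any of the 5 mice (-0.37 to -0.45). Ddit3 (0.59) passed without control mouse 1 (1.04). With the mouse as a block, 11 were higher and 3 lower, where 43.5% of all genes were called.

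The levels were also taken within goblet-like cells. Such cells made up 18.4% of HFD and 16.6% of control cells in the colon, 18.1% and 13.3% in distal samples, and 4.68% and 4.35% in proximal samples. Creb3l1 averaged 794 ± 125 CPM in the colon (SD, n = 5 libraries with 20 or more such cells), 471 ± 39.9 CPM in the distal small intestine (SD, n = 5 libraries with 20 or more such cells) and 369.9 ± 58.0 CPM in the proximal small intestine (SD, n = 4 libraries with 20 or more such cells). Colon goblet-like cells thus lay above the others for Creb3l1. Ern2 averaged 309.9 ± 35.7, 291 ± 47.9 and 269 ± 12.8 CPM in the colon, distal and proximal goblet-like cells of the same libraries, so its means lay closer together than those of Creb3l1. Creb3l1 and Ern2 also reached 146 ± 26.5 and 40.1 ± 6.32 CPM in the unnamed clusters of the colon (n = 5 libraries), which hold 2301 colon cells. In distal samples the unnamed clusters stood at 13.5 ± 3.67 and 3.23 ± 1.79 CPM, lower than in the colon. These levels are descriptions, since different clusters hold the goblet-like cells of colon and small intestine. The unnamed cells also join unlike clusters, with Sult1a1 and Nox1 among the leading genes of 1 and Uhrf1 and Cdc6 of another. Their levels in the 2 organs therefore may not compare like cells.

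**Figure D4:**
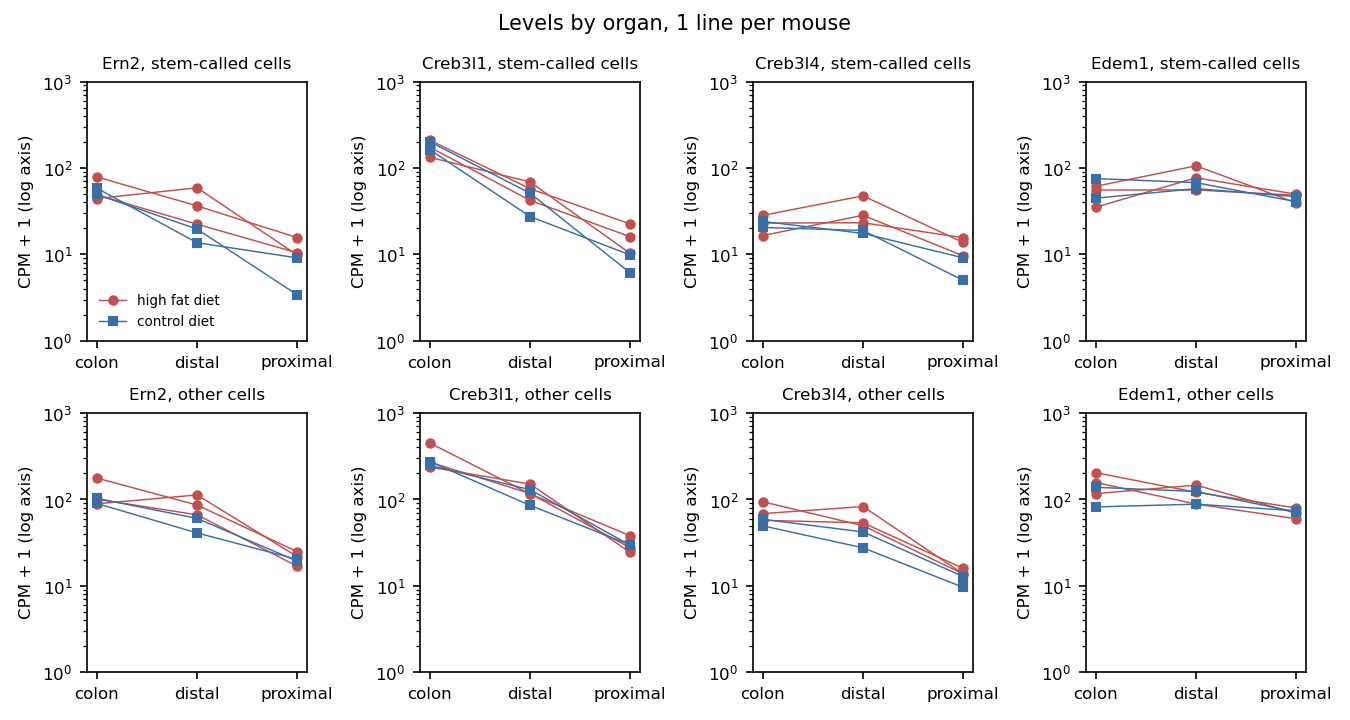
Levels of Ern2, Creb3l1, Creb3l4 and Edem1 (CPM plus 1, log axis) in colon, distal and proximal samples, for stem-called and other cells. Each line is 1 mouse, circles are HFD and squares control mice. Creb3l1 falls along every line between the colon and proximal samples.

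The question named by the series is the effect of the high fat diet. Of the 36 genes tested in stem-called cells, 0 were called in proximal samples (over all genes, 0.122%), distal samples (0.0081%) and the colon (0%) by edgeR's quasi-likelihood test, with 3, 3 and 1 at an unadjusted p under 0.05, and DESeq2 also called 0 in each. Over all genes, higher calls in HFD mice made up 0.113%, 0.0081% and 0% and lower ones 0.0081%, 0% and 0%. An unadjusted p under 0.05 by edgeR was reached by 459, 330 and 314 of all 12339 genes. In the other cells, 0 of 39 were called in proximal samples (0.0839%), distal samples (0.00699%) and the colon (0%), with 0, 2 and 0 at an unadjusted p under 0.05, and 0 by DESeq2. There, higher calls over all genes made up 0.0769%, 0.00699% and 0% and lower ones 0.00699%, 0% and 0%. In these cells, 443, 288 and 492 of all 14307 genes had an unadjusted p under 0.05 by edgeR. The median log2 difference of HFD minus control over the genes was 0.12, 0.08 and -0.00 in stem-called cells and 0.05, 0.10 and 0.25 in other cells of proximal, distal and colon samples. With 1 mouse left out at a time, these medians ran over 0.04 to 0.34, -0.06 to 0.40 and -0.30 to 0.27 in stem-called cells and over -0.10 to 0.26, -0.16 to 0.49 and -0.00 to 0.52 in other cells, so 5 of the 6 took either sign. With 3 mice against 2, the intervals stay wide, and they leave room for changes that the test could not call.

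For the chaperone Hspa5, the values of the 2 diets lay close in proximal stem-called cells, with a log2 difference of -0.13 (95% interval -0.72 to 0.45). The distal difference was -0.17 (-0.75 to 0.41). In colon stem-called cells the 3 HFD mice, at 1228, 1104 and 1317 CPM, lay below both control mice, at 1410.2 and 2540.2 CPM, and the difference was -0.67 (-1.25 to -0.09, unadjusted p = 0.0263, adjusted p = 1 by edgeR's quasi-likelihood test). Control mouse 2 stood apart, and without it the colon difference was -0.21, against -1.04 without control mouse 1. Xbp1 stood at -0.01 (-0.66 to 0.64), 0.31 (-0.34 to 0.96) and -0.42 (-1.09 to 0.25) in proximal, distal and colon samples. In the same order the differences in stem-called cells were -0.19, -0.30 and -0.58 for Atf4, 0.05, -0.09 and -0.58 for Ddit3, -0.18, 0.00 and -0.06 for Ern1, 0.24, 0.34 and 0.02 for Eif2ak3 and 0.12, 0.48 and -0.18 for Atf6. Several of these values changed sign without 1 of the control mice. With each mouse left out in turn, Atf4 ran over -0.61 to 0.37 in proximal and -0.75 to 0.29 in distal samples, Ddit3 over -0.36 to 0.57, -0.65 to 0.45 and -1.93 to 0.52 in proximal, distal and colon samples, and in the colon Xbp1 over -0.80 to 0.10 and Ern1 over -0.51 to 0.47. None of the sensors of the unfolded protein response, nor Ddit3, thus passed the test between the diets. Trib3, Chac1 and Derl3 were too low to test in stem-called cells.

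The widest differences with diet in proximal stem-called cells were again in Creb3l1, Ern2 and Creb3l4. Creb3l1 stood in proximal stem-called cells at 15.03, 21.5 and 9.26 CPM in HFD mice, against 8.86 and 5.11 CPM in control mice. The 3 HFD mice lay above both control mice, and the log2 difference was 1.18 (95% interval 0.35 to 2.01), with an unadjusted p of 0.0086 and an adjusted p of 0.765 by edgeR's quasi-likelihood test. Creb3l4 differed by 1.03 (0.24 to 1.82) and Ern2 by 1.16 (0.11 to 2.22) in the same cells. In distal samples, Ern2 differed by 1.23 (0.23 to 2.22), Creb3l4 by 0.88 (0.12 to 1.63) and Atf6 by 0.48 (0.08 to 0.88), each with an adjusted p of 1 by edgeR, and Creb3l1 by 0.46 (-0.29 to 1.21). With 1 mouse left out, the proximal values ran over 0.83 to 1.57 for Creb3l1, 0.59 to 1.56 for Creb3l4 and 0.49 to 2.19 for Ern2, each lowest without control mouse 2 and highest without control mouse 1. Goblet markers in proximal stem-called cells summed to 731 to 1702 CPM in HFD and 381 to 781 CPM in control mice, and Paneth markers to 127 to 339 CPM in HFD and 633 to 1355 CPM in control mice. Without immune-like and secretory-like clusters, the proximal differences were 1.01 for Creb3l1, 1.29 for Creb3l4 and 1.56 for Ern2, and the distal ones 0.74 for Ern2, 0.15 for Creb3l4, 0.23 for Atf6 and -0.87 for Creb3l1, whose sign turned. None of these passed the test. In other distal cells, Creb3l4 (0.81) and Ern2 (0.78) were the 2 genes at an unadjusted p under 0.05. Whether the diet difference depends on the stem call was tested in proximal samples, and whether it depends on the organ between distal and proximal stem-called cells. In both tests 0 of the genes were called by edgeR (over all genes, 0% and 0%) and 0 by DESeq2. Over all genes, 294 of 13544 and 178 of 12339 had an unadjusted p under 0.05 by edgeR, and of the genes described here 2 and 0. The 2 were Creb3l1 (1.10, adjusted p = 0.64) and Ern2 (1.07, adjusted p = 1), with 0.69 and 0.29 without control mouse 2.

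**Figure D5:**
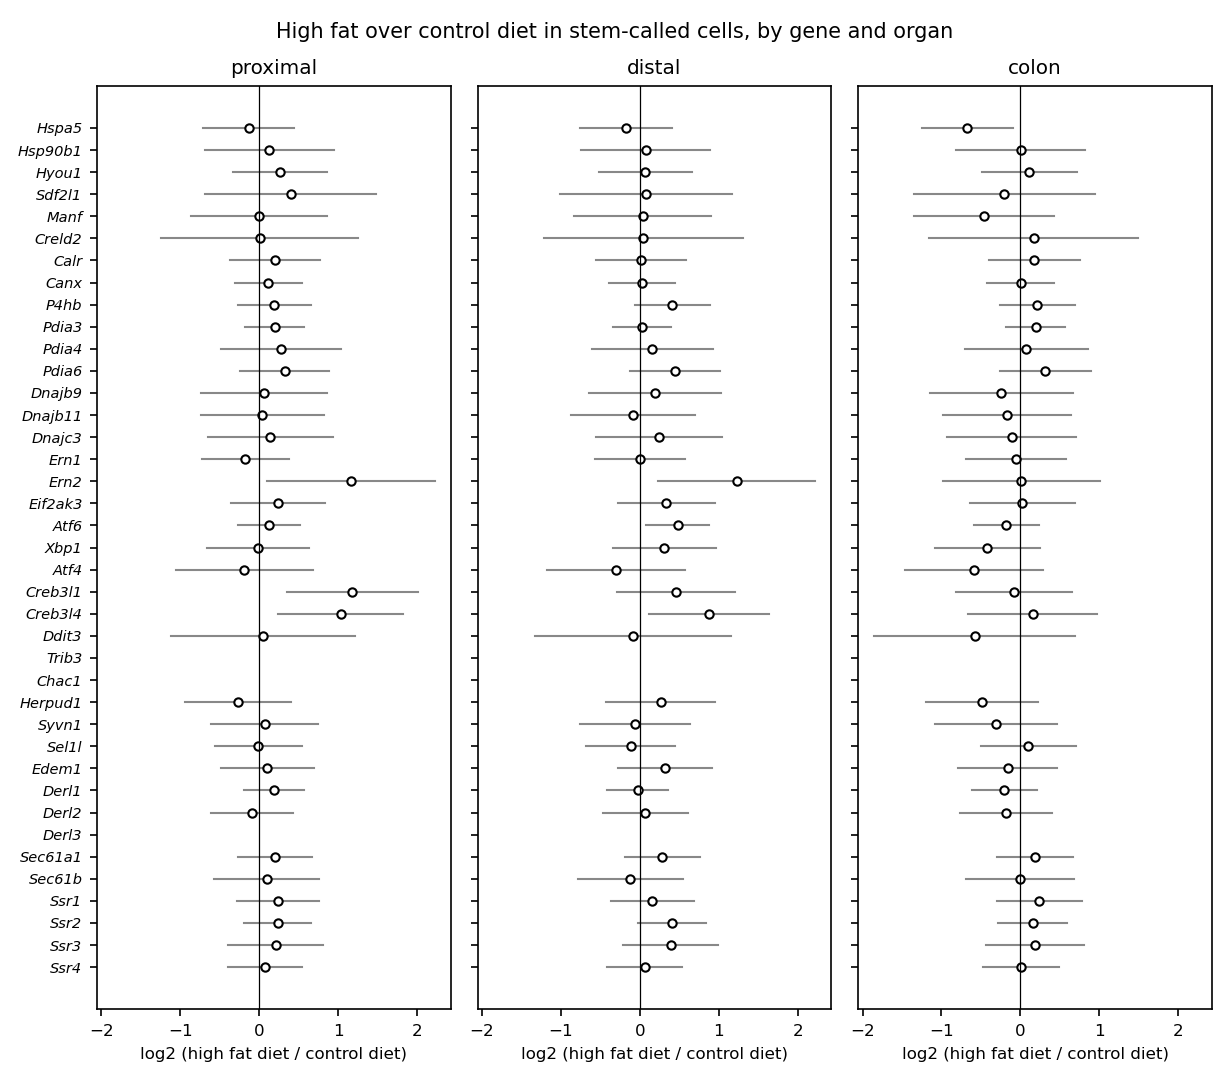
Log2 difference of HFD minus control (x axis) for each of the 39 genes (y axis, by role) in stem-called cells of the 3 organs, with 95% intervals. All points are open since none was called, and Trib3, Chac1 and Derl3 have no point. The points of Ern2, Creb3l1 and Creb3l4 lie farthest to the right in proximal samples.

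Other genes of secretory protein handling, in 6 lists chosen with earlier results of these data known, were also tested between the 2 populations, where 20.8%, 23.7% and 23.3% of all genes were lower and 15.9%, 20.3% and 20.8% higher in proximal, distal and colon samples. In stem-called cells, 16, 15 and 14 of 19 genes of the ER membrane, retrieval and cleavage were lower in the same order, as were 11, 11 and 10 of 13 genes of the oligosaccharyltransferase, which attaches N-glycans, 14, 14 and 12 of 19 of translocation and signal peptide removal, 12, 11 and 15 of 20 other folding enzymes, and 8, 10 and 9 of 16 other degradation genes. In these 5 lists, 1 membrane gene in the colon (Mbtps1, the site-1 protease, 0.31) and 1 folding enzyme in distal samples (Prdx4, 0.26), both chosen after their values were seen, were higher. Of the 18 other integrated stress response targets, 4, 6 and 5 were lower and 6, 4 and 5 higher, shares near those of all genes. Phgdh, the first enzyme of serine synthesis, was higher in stem-called cells by log2 0.79, 1.46 and 1.18, and in distal samples the amino acid transporter Slc7a5 was higher by 0.95 and the mTOR inhibitor Ddit4 by 0.87, while the lipoprotein receptor Vldlr was lower (-0.69). Among the genes that fell, Kdelr3, a receptor that returns ER proteins from the Golgi, differed by -1.80, -1.63 and -2.61, Sec24d, a coat protein of ER export, by -1.86, -1.38 and -1.35, Ostc, an oligosaccharyltransferase subunit, by -0.68, -0.82 and -0.72, and Agr2, a disulphide isomerase of mucin folding that is also on the goblet marker list, by -1.87, -2.05 and -2.41.

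The same lists were compared between organs in stem-called cells. Distal over proximal, where 3.78% of all genes were higher and 1.69% lower, 5 of 20 folding enzymes were higher, among them Agr2 (2.08), Fkbp11 (1.60), Selm (1.59) and Pdia5 (1.03). Of the 19 membrane and retrieval genes, Kdelr3 (3.06) and Sec24d (1.30) were higher and Creb3l3 (-4.31), a liver and enterocyte relative of Creb3l1, was lower. Of the 18 integrated stress response targets, Nupr1 (3.98) and Vldlr (2.67) were higher, and the remaining 3 lists had no call by edgeR. In colon over small intestine, where 10.7% of all genes were higher and 7.31% lower, 4 of the 18 integrated stress response targets were higher, with Stc2 (7.80) and Slc7a11 (2.64) at the top, and 3 were lower, 2 folding enzymes were higher (Fkbp14, 1.77, and Pdia5, 1.30), Sec11c of the signal peptidase was higher (0.84), and Creb3l3 (-3.61), Lman1 (-0.43) and Stt3b (-0.51) were lower. With diet, 1 gene of the 6 lists was called in 6 comparisons, Creb3l3 in proximal stem-called cells.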

How the data were processed

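Per the labels, single cells were sequenced by Seq-Well with second strand synthesis. The deposited values are raw UMI counts per gene and cell, in 1 table of all 15 samples, and the genome build was mm10, per the submitters' processing notes. The aligner, the counting tool and the annotation are not given in the sources used here. The cell table's other columns are labels deposited by the authors (diet, organ, mouse and stem call). Control mouse 3 of that table could only be control mouse 2 of the sample titles and was mapped to it. Cells held at least 538 UMIs and 492 genes, with mitochondrial shares up to 35.0%. No cell was removed and no doublet caller was run.

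Counts were summed per library and stem call and tested in R 4.3.3 with edgeR 4.0.16 (TMM, filterByExpr, quasi-likelihood F test, adjusted p threshold 0.05 by Benjamini-Hochberg over all genes). Diet and organ contrasts used a model of 6 groups without a block, fitted to stem-called and to other sums apart; stem-called against other cells used the library as a block. Alternatives were DESeq2 1.42.0, its size factors, no filter on low counts, each mouse left out, a stem call after thinning cells to 3000 UMIs (961 cells were shallower, 645 of HFD and 316 of control mice, and 2249 calls remained), a mouse block, fits of 1 organ, a depth covariate and exclusions of clusters. The fit was tested on simulated data. The organs of 1 mouse are paired by animal, and in 15 such pairs the deviations from group means correlated at 0.127 to 0.751. Deviations of the 2 control mice mirror each other, so their values (0.751, 0.433 and 0.5) are the same for both mice. Pairs of HFD mice ran over 0.127 to 0.474. In Python 3.11.15 with scanpy 1.11.5 and leidenalg 0.10.2, cells were clustered without the 39 genes (10000 counts per cell, 2000 variable genes, values limited to 10, 30 components, 15 neighbours by scikit-learn 1.9.0, resolution 1). Of the 34 clusters, those with 3 or more markers at 2 times the level of other cells (10 CPM added) were named after the type. A name was withheld if another type had more markers among the 10 leading genes, or if a shallow cluster had no leading marker. A rule added after clustering left 1 cluster of 36 cells with 3 stromal markers unnamed, as Siglech was among its leading genes. In all, 6253 cells stayed unnamed. The mice are separate animals, and intervals of summed counts cover the spread between their libraries. Genes named are all those called, plus 8 fixed ones, and at most 4 per other list. The 39 genes and the lists were chosen with earlier results of these data known.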

Additional observations from a re-analysis of the deposited data

Results flagged for a closer look

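In each organ, the log2 ratio of stem-called over other cells was examined for a mouse standing apart from the remaining 4, over 117 groups of 5 libraries. By Dixon's test at 95% (critical value 0.71), 11 groups had such a library, where chance gives about 1 in 20. In proximal samples these were Ern2 in control mouse 2 (-2.51, others -1.15 to -0.68), Derl1 in HFD mouse 1 (-0.03, others -0.35 to -0.26), Sec61b in HFD mouse 1 (-0.06, others -0.59 to -0.51) and Ssr1 in HFD mouse 1 (0.07, others -0.44 to -0.29). In distal samples they were Atf4 in control mouse 1 (0.31, others -0.32 to -0.25), Derl1 in control mouse 1 (0.07, others -0.34 to -0.23) and Derl2 in HFD mouse 2 (-0.12, others -0.52 to -0.42). In the colon they were Creld2 in HFD mouse 1 (-0.98, others -0.59 to -0.46), Ern2 in control mouse 1 (-0.62, others -1.17 to -1.01), Atf4 in HFD mouse 2 (-1.39, others -0.19 to 0.10) and Ddit3 in HFD mouse 1 (-1.25, others -0.43 to -0.12). The depth of these libraries differs, and its part in these values was not tested.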

How the results depend on the processing

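Of the gene results under alternatives, 2374 kept their direction and side of the threshold, 140 changed sign while passing in neither setting, 9 passed only there, 174 no longer passed, and 24 changed sign with a call in either setting. These 24 compared stem-called with other cells. Without immune-like and secretory-like clusters in the other cells alone, they were Creb3l1 1.17, Creb3l4 1.94 and Ern2 1.84 in proximal samples, Atf6 0.039, Creb3l1 2.15, Creb3l4 3.44, Eif2ak3 0.29, Ern2 3.56, Herpud1 1.01, Sdf2l1 0.089 and Ssr3 0.13 in distal samples, and Creb3l1 0.41, Creb3l4 1.46, Ern2 0.55 and Herpud1 0.11 in the colon. With these clusters out of both populations, an alternative added after seeing the data, they were Creb3l4 1.41 and Ern2 0.14 in proximal samples, Creb3l1 0.36, Creb3l4 1.58, Ern2 0.74 and Herpud1 0.52 in distal samples, and Creb3l1 0.11, Creb3l4 0.91 and Ern2 0.28 in the colon. The exclusion from the other cells alone kept such clusters in the stem-called sums, so it compares the 2 populations unevenly for genes high in them. The causes were not tested. The first exclusion called 21 genes in distal samples and 19 in the colon, and the second 21 in the colon. Without the library block, 6, 13 and 12 genes were called in place of 31, 34 and 35 (over all genes, 6.6%, 11.9% and 15.4%), and leaving out each mouse gave 29 to 32, 31 to 36 and 32 to 35. Distal over proximal, stem-called cells gave 2 calls with the call at 3000 UMIs, 1 without the clusters and 1 to 4 with a mouse left out (1 without control mouse 2, 2 without HFD mouse 3); other cells gave 6 with DESeq2, 6 with the replicate block and 1 without the clusters. Colon over small intestine, stem-called cells gave 6 with the block and 4 without the clusters; other cells gave 14 with the block, 5 with the call at 3000 UMIs and 3 to 6 with a mouse left out (5 without HFD mouse 1, 3 without HFD mouse 2 or control mouse 2). Over all genes, the distal over proximal calls in stem-called cells were 246 higher and 133 lower of 10837 at 3000 UMIs. They were 311 and 200 of 11951 without the clusters. In other cells they were 937 and 564 of 14252 with DESeq2 and 326 and 219 of 13204 without the clusters. Colon over small intestine, they were 1347 and 956 of 11951 in stem-called cells without the clusters. In other cells at 3000 UMIs they were 2290 and 1824 of 14535. No alternative called any of the 39 genes between the diets. The replicate block paired mice of the 2 diets by the number in the sample titles. Their deviations correlated at 0.318, 0.357 and 0.396 for mice 1 in proximal, distal and colon samples. For mice 2 the values were 0.1, 0.059 and 0.024. The cell table numbers control mouse 2 as mouse 3, and its pairing with HFD mouse 3 was not examined. Whether mice of the same number share more than that number was not tested. The replicate block called 0 of the 39 genes there too. Over all 14307 genes, it called 191 higher and 47 lower in other colon cells, where the main fit called 0. Shallow libraries and 2 control mice limit the precision.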
